A study of Mus musculus with 9 samples.

Results

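The islet hormone genes were taken as 10 genes of peptides made or stored in pancreatic islets, namely Ins1, Ins2, Gcg, Sst, Iapp, Ppy, Pyy, Npy, Ghrl and Ttr. They were found by gene name in the authors' deposited table of 17641 windows, and in the called peaks that overlapped the genes or lay within 2 kb of their starts. Of the 14969 gene identifiers to which a window was assigned, 6 were among the 10, with 7 windows, since Sst had a pair of them. Ins2, Ppy, Pyy and Ghrl had no window assigned to them. One further window lay inside Ins2 but was assigned in the table to Gm49394. It was found after the values had been seen, and is described here under Ins2 and kept out of the counts of windows.

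The libraries were chromatin immunoprecipitation sequencing with an Active Motif antibody labelled H3K9me3, trimethylated lysine 9 of histone H3, in mouse pancreatic endocrine cell lines. The alphaTC1 line, of glucagon-producing alpha cells, was used 5 days after transduction either with an empty vector (n = 2) or with a short hairpin RNA against Smndc1 (n = 2), a splicing factor related to SMN. The betaTC3 line, of insulin-producing beta cells, had no treatment (n = 2), so it differed from both alphaTC1 groups in the line and in the transduction. Each group had 1 input sample, which served the authors' peak calling. Each cell type was represented by 1 line, and both are tumour lines, so cell type, line and transduction cannot be told apart in any comparison with betaTC3. Whether the libraries of a group were separate cultures is not said in the labels, and p-values measure no more than the spread among these libraries, which may be technical.

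In the islet each endocrine cell type is known for 1 main hormone: insulin in beta cells, glucagon in alpha cells, somatostatin in delta cells, pancreatic polypeptide in PP cells and ghrelin in epsilon cells. Insulin lowers blood glucose, glucagon raises it, and somatostatin restrains the release of both. H3K9me3 is best known as a mark of silent chromatin, where it is bound by heterochromatin proteins. Hormone genes of the other islet cell types are silent in a mature alpha or beta cell.

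The values are scaled reads, the authors' normalised signal per window of 401 bp. They were whole reads multiplied by 1 factor per library, and the libraries held 4530066 to 9924487 reads in windows. A library with no read at a window allows up to 3 reads there, which is 2.40 to 4.19 scaled reads, and this is called the floor. Of all windows, 65.5% lay within 1 kb of the assigned gene's start, which is not the distribution that H3K9me3 is known for. What the antibody captured was not tested, so the libraries are called by their label only. Between the lines, the windows at the alpha cell markers Gcg, Irx1, Irx2 and Pou3f4 were lower in betaTC3. Of the windows at 5 of 6 beta cell markers, 4 were higher there than with the empty vector (Ins1, Pdx1, Mafa and Slc2a2). Nkx6-1, the remaining one, was called in that comparison when libraries were centred on their medians. Against the knockdown it was called with the deposited scaling too. The markers used for acinar, duct and stromal cells had 1 window each (Cela1, Sox9 and Col1a1), all lower in betaTC3. Their part in the results was not tested.

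The window at Gcg stood well above the floor in alphaTC1 and was empty in betaTC3. Those at Ins1, Ins2, Iapp, Npy, Ttr and the start of Sst stood at 93.3 scaled reads or more in each betaTC3 library and at 7.94 or less in each alphaTC1 library. The signal thus lay at Gcg in the glucagon-producing line and at Ins1 and Ins2 in the insulin-producing line. Whether it goes with silent chromatin at these genes was not tested. Between betaTC3 and the empty vector, 5 of the 7 windows assigned to hormone genes were higher and 1 was lower by limma at an adjusted p below 0.05. Among all windows 55.2% were called, 22.1% higher and 33.2% lower. Between betaTC3 and the knockdown the counts were again 5 higher and 1 lower, against 60.6% of all windows, 36.6% higher and 24.0% lower. Both comparisons use the betaTC3 libraries and so are not independent. With libraries centred on their medians, 6050 windows were higher and 5623 lower in betaTC3 than with the empty vector, in place of 3893 and 5851, and the calls at the hormone genes were the same.

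**Figure D1:**
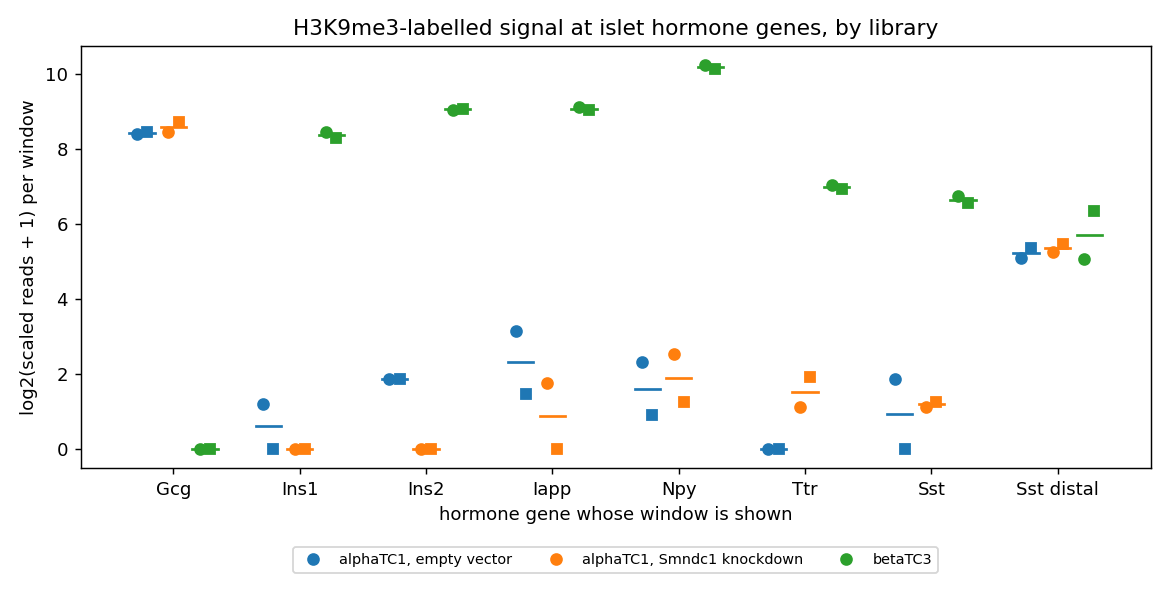
Signal at each hormone gene window in the 6 libraries, as log2(scaled reads + 1); circles are replicate 1, squares replicate 2, lines the mean of the log2 values (n = 2), and colours the groups. Gcg is at 0 in both betaTC3 libraries, and the other genes are at 7.94 scaled reads or below in every alphaTC1 library, apart from the distal Sst window, where all groups overlap.

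Called peaks gave the same division, but they come from the same libraries as the windows and are no separate support. The windows are the authors' peak set, so one could be included through the only line with a peak there. The calls at these genes are therefore a description. Gcg had a peak in all 4 alphaTC1 libraries and in neither betaTC3 library, a pattern held by 1.89% of 17491 protein-coding genes. The pattern reversed at 6 of 10 genes (Ins1, Ins2, Iapp, Npy, Sst and Ttr), with a peak in both betaTC3 libraries and in no alphaTC1 library, as held by 3.40% of protein-coding genes. Ppy, Pyy and Ghrl had none in any library, as did 38.5% of protein-coding genes. A peak in both libraries of a group was found at 1 of the 10 genes with the empty vector, at 1 with the knockdown and at 6 in betaTC3, against 55.9%, 56.1% and 57.6% of protein-coding genes. Peaks, their folds and their q-values are the authors' own, called per library against the group's input.

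**Figure D2:**
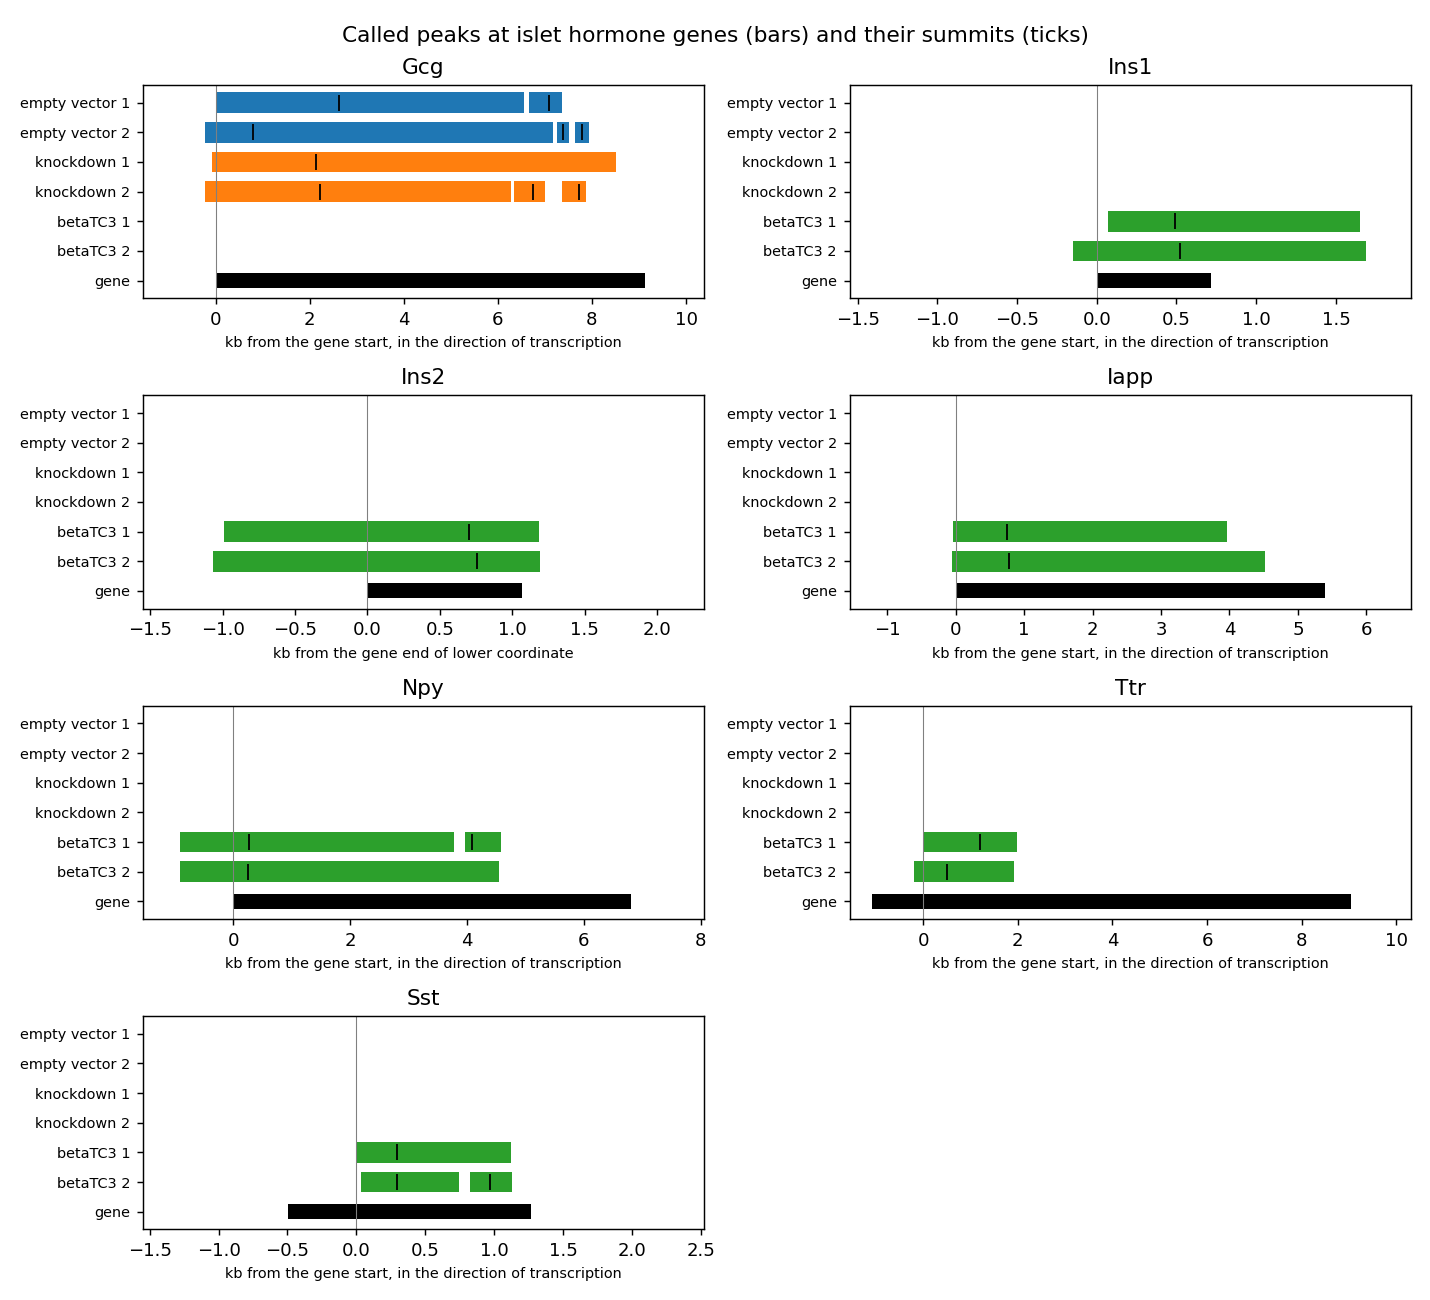
Called peaks (coloured bars, 1 line per library) and their summits (ticks) at 7 hormone genes, in kb from the gene start along the direction of transcription, or along the chromosome for Ins2; the black bar is the RefSeq gene, which at Sst and Ttr begins before the start used. The peaks at Gcg cover 79.8% to 93.2% of the gene in the 4 alphaTC1 libraries, and those at the other 6 genes are found only in the betaTC3 lists.

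Gcg encodes proglucagon, from which glucagon and the glucagon-like peptides are cut. The 250 bases before its RefSeq start (GRCm38.p6, chr2:62483654-62483903, minus strand) are shown because 3 of the 4 broad peaks described next reached into them. Capitals mark CAGATG, an E-box, and TATAAA on either strand.

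Gcg: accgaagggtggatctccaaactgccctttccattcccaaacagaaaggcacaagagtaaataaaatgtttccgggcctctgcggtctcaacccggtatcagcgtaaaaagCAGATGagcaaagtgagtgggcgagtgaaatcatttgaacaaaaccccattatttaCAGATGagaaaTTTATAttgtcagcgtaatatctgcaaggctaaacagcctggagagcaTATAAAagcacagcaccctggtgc

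CAGATG, read as CATCTG on the other strand, was found at 139 and 83 bases before the start and TATAAA at 24 bases before it and, on the opposite strand, at 72. Of 32851 RefSeq promoters of the same length, 14.4% held CATCTG and 12.4% held TATAAA on either strand.

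The Gcg window (ENSMUSG00000000394, chr2:62481721-62482121, inside the gene, its far edge 1929 bp after the start by the table) held 340.3 and 352 scaled reads in the empty-vector libraries, 352 and 421 in the knockdown libraries, and 0 in both betaTC3 libraries. The alphaTC1 values lay far above the floor and did not overlap with betaTC3. They stood at the 51.5 and 51.4 percentiles of all windows of the empty-vector libraries, and at 62.0 and 60.9 in the knockdown libraries. In betaTC3 the window was at least 132-fold lower than with the empty vector (log2 change -8.44 ± 0.21 SE, adjusted p = 5.41e-06 by limma, n = 2 per group). Against the knockdown the fall was at least 147-fold (limma, adjusted p = 5.70e-06). In these bulk libraries signal from fewer cells and less of it per cell cannot be told apart.

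The signal at Gcg was broad. In the empty-vector lists the main peak was 6562 and 7386 bp wide, in the knockdown lists 8582 and 6518 bp, against median peak widths of 1129 to 1287 bp in the 6 lists. Each of the 4 peaks stood at the 99.8 percentile of width in its own list. By -log10 q the empty-vector peaks stood only at the 47.0 and 48.3 percentiles, the knockdown peaks at 59.8 and 58.4. Folds over the local background came to 32.8 and 37.1 in the empty-vector lists, whose median folds were 32.4 and 33.5. In the knockdown lists they came to 38.0 and 45.5, against medians of 24.0 and 29.5. Summits lay 788 to 2630 bp after the start. With the smaller peaks beside the main one, 79.8% and 84.6% of the gene's 9124 bp were covered in the empty-vector lists, and 93.2% and 81.9% in the knockdown lists. Of the 250 bases shown above, the empty-vector peaks covered 0 and 217, the knockdown peaks 79 and 230.

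Ins1 encodes 1 of the 2 mouse insulins. It lacks an intron of Ins2 and is known as a retroposed copy of it. The bases before its start (GRCm38.p6, chr19:52264047-52264296, plus strand) are given for comparison with Gcg, with the E-box CATCTG in capitals.

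Ins1: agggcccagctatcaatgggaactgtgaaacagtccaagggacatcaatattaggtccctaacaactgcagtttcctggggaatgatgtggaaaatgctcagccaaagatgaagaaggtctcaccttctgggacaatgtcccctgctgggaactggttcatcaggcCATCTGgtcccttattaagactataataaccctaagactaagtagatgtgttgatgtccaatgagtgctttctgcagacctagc

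They hold 0 CpG and CATCTG once, 84 bases before the start. Gcg has 7 CpG in the same length, and the median RefSeq promoter has 6.

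The Ins1 window (ENSMUSG00000035804, chr19:52264569-52264969, 272 bp after the start) held 1.32 and 0 scaled reads with the empty vector, 0 in both knockdown libraries, and 354 and 314 in betaTC3. The 4 alphaTC1 libraries together had 1 read there, and betaTC3 had 773. BetaTC3 stood at 334 ± 28.1 scaled reads (SD, n = 2), in the middle of that line's windows at the 53.7 and 53.1 percentiles. The ratio of pooled reads to the empty vector was 632 (exact 95% counting interval 113 to 24979), with a log2 change of 7.78 ± 0.43 SE and an adjusted p of 1.83e-05 by limma. The change was 8.39 without empty-vector library 1, which held the only read, and 7.17 without library 2. Against the knockdown betaTC3 was at least 85.9-fold higher (adjusted p = 1.39e-05 by limma). The called peak was 1578 and 1835 bp wide and covered 89.8% and 100% of the gene, and in both libraries it ran past the gene's end.

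Ins2 encodes the other insulin. The window inside it (chr7:142679070-142679470) held 2.65 and 2.66 scaled reads with the empty vector, 0 in both knockdown libraries, and 533 and 542 in betaTC3. The values are low in all alphaTC1 libraries, where the empty vector had 5 reads in all, and do not overlap with betaTC3. BetaTC3 was 202-fold higher than the empty vector (log2 change 7.20 ± 0.26 SE, adjusted p = 6.50e-06 by limma) and at least 138-fold higher than the knockdown (adjusted p = 5.70e-06 by limma). The peak was 2170 and 2263 bp wide in the betaTC3 lists and covered 100% of the gene in both. Ins1 and Ins2 share most of their coding sequence, and reads of 50 bp from the shared stretches may have been given to either copy or discarded. How the authors treated such reads is not stated in the labels, so the difference in level between the copies is uncertain.

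Iapp encodes amylin, which beta cells release together with insulin. The bases before its start (GRCm38.p6, chr6:142298175-142298424, plus strand) held CATCTG at 111 bases before the start and TAATTG, a core bound by homeodomain proteins, at 10, both in capitals. TAATTG or its reverse complement CAATTA was in 7.17% of RefSeq promoters.

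Iapp: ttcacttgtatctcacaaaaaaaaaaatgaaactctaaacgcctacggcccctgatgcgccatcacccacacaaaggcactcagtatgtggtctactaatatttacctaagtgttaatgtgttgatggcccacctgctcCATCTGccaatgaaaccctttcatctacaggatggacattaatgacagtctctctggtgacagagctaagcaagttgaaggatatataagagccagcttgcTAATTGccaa

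The Iapp window (ENSMUSG00000041681, chr6:142299052-142299452, 629 bp after the start) held 7.94 and 1.78 scaled reads with the empty vector, 2.39 and 0 with the knockdown, and 556 and 531 in betaTC3. Empty-vector library 1 stood above the floor with 6 reads, still far below both betaTC3 libraries. BetaTC3 was higher than the empty vector by 6.77 ± 0.72 (SE) in log2 (adjusted p = 0.000298 by limma), or by 7.62 without empty-vector library 1 and 5.93 without library 2. Against the knockdown the ratio of pooled reads was 423 (exact 95% counting interval 117 to 3495, adjusted p = 0.000128 by limma), and the log2 change of 8.21 was 9.09 without knockdown library 1 and 7.33 without library 2. Iapp also had wide peaks, 4016 and 4571 bp, at the 99.0 and 99.3 percentiles of the betaTC3 lists, which covered 73.6% and 83.8% of the gene and reached 46 and 48 bases into the sequence shown.

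Npy encodes neuropeptide Y, best known from neurons and present in islet cells early in life. Its upstream sequence (GRCm38.p6, chr6:49822460-49822709, plus strand) is shown because it was wholly inside the peak in both betaTC3 libraries and differs in composition from those above. It held none of the motifs searched.

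Npy: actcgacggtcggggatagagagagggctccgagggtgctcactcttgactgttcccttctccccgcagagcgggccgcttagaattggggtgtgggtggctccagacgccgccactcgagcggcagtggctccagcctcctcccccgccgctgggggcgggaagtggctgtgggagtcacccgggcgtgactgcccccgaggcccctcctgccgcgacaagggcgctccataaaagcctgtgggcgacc

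It has 21 CpG and 69.2% G or C, against 3 CpG and 42.8% at Iapp, 7 and 44.8% at Gcg, and 0 and 46.4% at Ins1. The median of all promoters is 52.4%.

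The Npy window (ENSMUSG00000029819, chr6:49822723-49823123, 13 bp after the start) held 3.97 and 0.888 scaled reads with the empty vector, 4.78 and 1.40 with the knockdown, and 1213 and 1137 in betaTC3. This was the strongest of the hormone gene windows, at the 92.1 and 95.1 percentiles of betaTC3, and each alphaTC1 library had 4 reads or fewer. BetaTC3 was higher than the empty vector by 8.58 ± 0.58 (SE) in log2 (adjusted p = 3.97e-05 by limma), a value that rests on 4 empty-vector reads and was 9.28 without empty-vector library 1 and 7.89 without library 2. It was higher than the knockdown by 8.30 (adjusted p = 4.61e-05 by limma), or by 8.94 without knockdown library 1 and 7.67 without library 2. The main peak was 4696 and 5456 bp wide, at the 99.5 and 99.7 percentiles of width, and with a smaller peak in library 1 it covered 64.6% and 66.9% of the gene.

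Npy belongs to 1 peptide family with Ppy, pancreatic polypeptide, and Pyy, peptide YY, which lie close together on chromosome 11. Neither Ppy nor Pyy had a window or a peak in any library. Their sequences before the start were also poorer in CpG than that of Npy, with 4 at Ppy and 5 and 7 at the 2 Pyy starts. Ppy held TATAAA, 31 bases before the start, and TGCTGAC, a core bound by large Maf proteins, 173 bases before it. TGCTGAC was in 3.81% of RefSeq promoters. Ghrl, the ghrelin gene, likewise had no window and no peak, and 1 or 2 CpG before its 4 starts. A gene without a window has no value in the table, so its level was not measured here, and no peak means only that the caller's threshold was not passed.

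Sst encodes somatostatin. Before its start lies TGACGTCA, the cAMP response element for which this gene is a textbook example. It begins 48 bases before the RefSeq start and is given in capitals with its flanks (GRCm38.p6, chr16:23890874-23890903, minus strand).

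Sst: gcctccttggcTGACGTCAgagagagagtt

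TGACGTCA was in 1.55% of RefSeq promoters and in none of the other hormone gene promoters searched. The peaks described next began after the start in both betaTC3 libraries and did not cover it.

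The Sst window near the start (ENSMUSG00000004366, chr16:23890398-23890798, 560 bp from the start by the table) held 2.65 and 0 scaled reads with the empty vector, 1.19 and 1.40 with the knockdown, and 107 and 93.3 in betaTC3. Each alphaTC1 group had 2 reads in all. The betaTC3 values did not overlap with them but were low for that line, at the 36.4 and 34.6 percentiles. The ratio of pooled reads was 94.8 to the empty vector (exact 95% counting interval 25.9 to 787, log2 change 5.72 ± 0.59 SE, adjusted p = 0.000247 by limma). The change was 6.66 without empty-vector library 1 and 4.79 without library 2. To the knockdown it was 78.2 (21.4 to 650, adjusted p = 0.000324 by limma). The betaTC3 peaks covered 63.3% and 57.3% of the gene.

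The second Sst window lay 7404 bp upstream (chr16:23898362-23898762) and did not follow the gene. It held 33.1 and 39.9 scaled reads with the empty vector, 37.0 and 43.3 with the knockdown, and 32.7 and 80.9 in betaTC3. The betaTC3 libraries lay on either side of all others. A peak was called there in all 6 lists, with folds of 3.24 to 11.9. The change from the empty vector to betaTC3 was 0.49 in log2 (95% interval -0.53 to 1.51, adjusted p = 0.364 by limma). It was 1.13 without betaTC3 library 1 (adjusted p = 0.0406 by limma) and -0.15 without library 2, so the value rests on which library is used.

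Ttr encodes transthyretin, a carrier of thyroid hormone and of retinol-binding protein that islet endocrine cells also make. Its window (ENSMUSG00000061808, chr18:20665480-20665880, 200 bp after the start) held 0 scaled reads in both empty-vector libraries, 1.19 and 2.80 with the knockdown, and 130.2 and 123 in betaTC3. All alphaTC1 values were under the floor. BetaTC3 was at least 38.1-fold higher than the empty vector (log2 change 6.99 ± 0.34 SE, adjusted p = 1.23e-05 by limma). The ratio of pooled reads to the knockdown was 65.6 (exact 95% counting interval 22.2 to 320, adjusted p = 3.04e-05 by limma). Its peaks, 1974 and 2103 bp wide, covered 19.5% and 20.8% of the RefSeq gene.

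The windows have the same width, so their levels in betaTC3 are given in order, with the places of Ins1 and Ins2 uncertain because their copies share sequence. Npy stood first at 1175 ± 53.6 scaled reads (SD, n = 2). Iapp at 543 ± 17.5 and Ins2 at 538 ± 6.92 came next and did not differ beyond their spread, since the Ins2 libraries lay inside the range of Iapp. Ins1 followed at 334 ± 28.1, then Ttr at 126 ± 5.24 and Sst at 100.1 ± 9.72, with no overlap between these neighbours. In alphaTC1 the only hormone gene window with a level of its own, besides the distal one of Sst, was Gcg, at 346 ± 7.99 with the empty vector. That is close to the level of Ins1 in betaTC3, whose libraries at 354 and 314 lie around it.

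The comparison of knockdown with empty vector asked whether the signal at hormone genes differs in alphaTC1 cells given the hairpin RNA against Smndc1. None of the 7 windows was called (0 of 7, by limma), as was no window of the whole table (0%), and 1 of the 7, Ttr, had an unadjusted p under 0.05, as had 6169 of all windows. None of the genes that carried signal in betaTC3 had a called peak in either knockdown library. This restates the pattern given above, a peak in both betaTC3 libraries and in no alphaTC1 library, held by 3.40% of protein-coding genes. At Ins1 and Ins2 both knockdown libraries had 0 reads, where counts of 0 allow up to 3.58 and 4.19 scaled reads, against 314 or more in each betaTC3 library. For Ins1, Npy and the start of Sst the changes were -0.61, 0.28 and 0.26 in log2 (adjusted p = 0.308, 0.735 and 0.757 by limma), each from 9 reads or fewer over the 4 libraries. Without empty-vector library 2 the value was -0.42 for Npy and -0.67 for Sst, and without knockdown library 1 it was -0.35 for Npy. For Iapp the pooled ratio of empty vector to knockdown was 3.30 with an exact 95% counting interval of 0.659 to 31.9 (adjusted p = 0.187 by limma).

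Ins2 and Ttr came nearest to a call between the alphaTC1 groups, both from values at or under the floor. At Ins2 the empty vector had 2 and 3 reads and the knockdown none (log2 change -1.87, adjusted p = 0.0691 by limma). The call was made in 4 of 13 alternatives, among them without knockdown library 2 (adjusted p = 0.0288 by limma). At Ttr the empty vector had no read and the knockdown 1 and 2 (log2 change 1.53, adjusted p = 0.117 by limma). The call was made in 2 of 13, also without knockdown library 2 (1.13, adjusted p = 0.0406 by limma). Both differences rest on counts within the 3 reads per library that a count of 0 allows.

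At Gcg the knockdown stood at 386.5 ± 48.3 scaled reads and the empty vector at 346 ± 7.99 (SD, n = 2 per group), with knockdown library 1 just above the higher empty-vector library. The change of 0.15 in log2 (95% interval -0.36 to 0.67, adjusted p = 0.602 by limma) did not pass. The table as a whole lay lower with the knockdown, by a median log2 of -0.37 and with 81.2% of windows below 0. Among the 4029 windows with an empty-vector mean of 200 to 600 scaled reads, the median was -0.39, and 14 (0.347%) had a larger change than Gcg. Of all 17641 windows, 2078 (11.8%) had one. This ranking was chosen after the value at Gcg was seen and is a description. With libraries centred on their medians the change at Gcg was 0.53 (unadjusted p = 0.0449, adjusted p = 0.365 by limma), and 0.52 to 0.53 without any 1 of the 4 libraries. EdgeR gave 0.53 (adjusted p = 0.326). The value therefore depends on the scaling by more than its distance from 0, and no scaling gave a call.

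**Figure D3:**
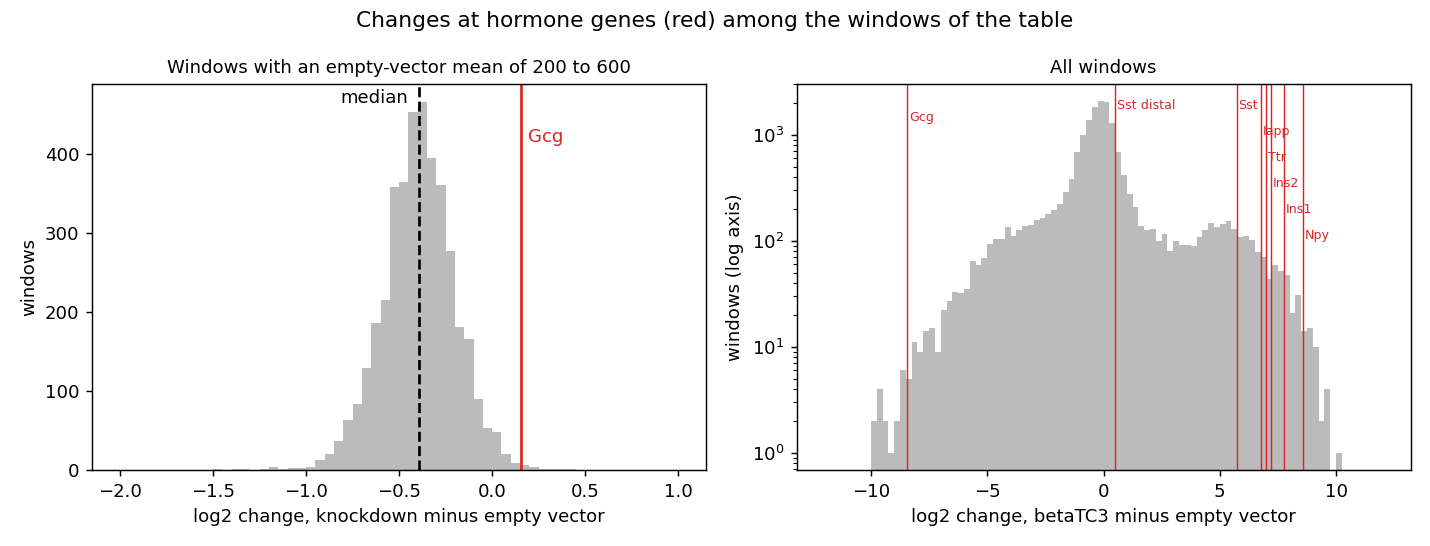
Left, log2 changes from empty vector to knockdown of the 4029 windows with an empty-vector mean of 200 to 600 scaled reads, with their median of -0.39 (dashed) and Gcg at 0.15 (red); right, changes from empty vector to betaTC3 of all 17641 windows, counted on a log axis, with the hormone genes in red. Gcg lies at the right edge of the left panel and, at -8.44, near the left end of the right panel, where the other genes except the distal Sst window lie between 5.72 and 8.58.

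Windows of other genes within 100 kb of the hormone genes numbered 0 to 6. None lay within that distance of the starts of Gcg, Ins1 or Npy. At Ins2 the window of Igf2os, an antisense transcript of the imprinted Igf2 locus, lay 19972 bp away. It held 2.65 and 5.33 scaled reads with the empty vector, 9.56 and 5.59 with the knockdown, and 649 and 651 in betaTC3. Like Ins2 it was higher in betaTC3 (log2 change 7.08, adjusted p = 1.50e-05 by limma). Sst had 3 windows of Gm37419. The one 93954 bp away was also higher in betaTC3 than with the empty vector (26.1 ± 0.519 scaled reads with the empty vector and 110.3 ± 35.1 in betaTC3, SD, n = 2 per group, adjusted p = 0.00102 by limma). The others were not called in that comparison. Against the knockdown 2 of the 3 were higher and 1, the one 92271 bp away, was lower (log2 change -0.48, adjusted p = 0.0382 by limma). Near Iapp the nearest window was that of Pyroxd1, an oxidoreductase gene, 47411 bp away, which was lower in betaTC3 (log2 change -0.92, adjusted p = 0.00250 by limma). A window assigned to Gm16090, 24000 bp from Ttr and 24180 bp from the start of Gm16090 itself, was also lower (log2 change -1.01, adjusted p = 0.00828 by limma). These changes at Pyroxd1 and Gm16090 from the empty vector went against the hormone gene beside them, and the second window near each gene was not called. Against the knockdown, Pyroxd1 was again lower in betaTC3 (log2 change -0.52, adjusted p = 0.0265 by limma) and Gm16090 was not called (0.03, adjusted p = 0.924 by limma). B4galt6, the second window near Ttr, was higher in that comparison (1.00, adjusted p = 0.0135 by limma), as was Ttr.

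Around the genes without signal, other windows were present in every group. Ppy and Pyy shared 6 windows within 100 kb, of which 1 was higher and 5 lower in betaTC3 than with the empty vector. Against the knockdown 1 was higher and 4 lower. The nearest, at Mpp2, 13081 bp from Ppy and 19538 bp from Pyy, held 1698 ± 58.6 scaled reads with the empty vector and 697 ± 29.8 in betaTC3 (SD, n = 2 per group; log2 change -1.28, adjusted p = 0.000509 by limma). Ghrl had 5, of which 4 were lower in betaTC3 than with the empty vector and 2 lower than with the knockdown. Those at Tatdn2 and Sec13, 19982 and 22795 bp away, held 1657 ± 53.4 and 1351 ± 90.6 scaled reads with the empty vector. Among all windows, 33.2% were lower in betaTC3 than with the empty vector and 24.0% lower than with the knockdown. The segments around Ppy, Pyy and Ghrl therefore held windows in both lines while the genes themselves had none.

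**Figure D4:**
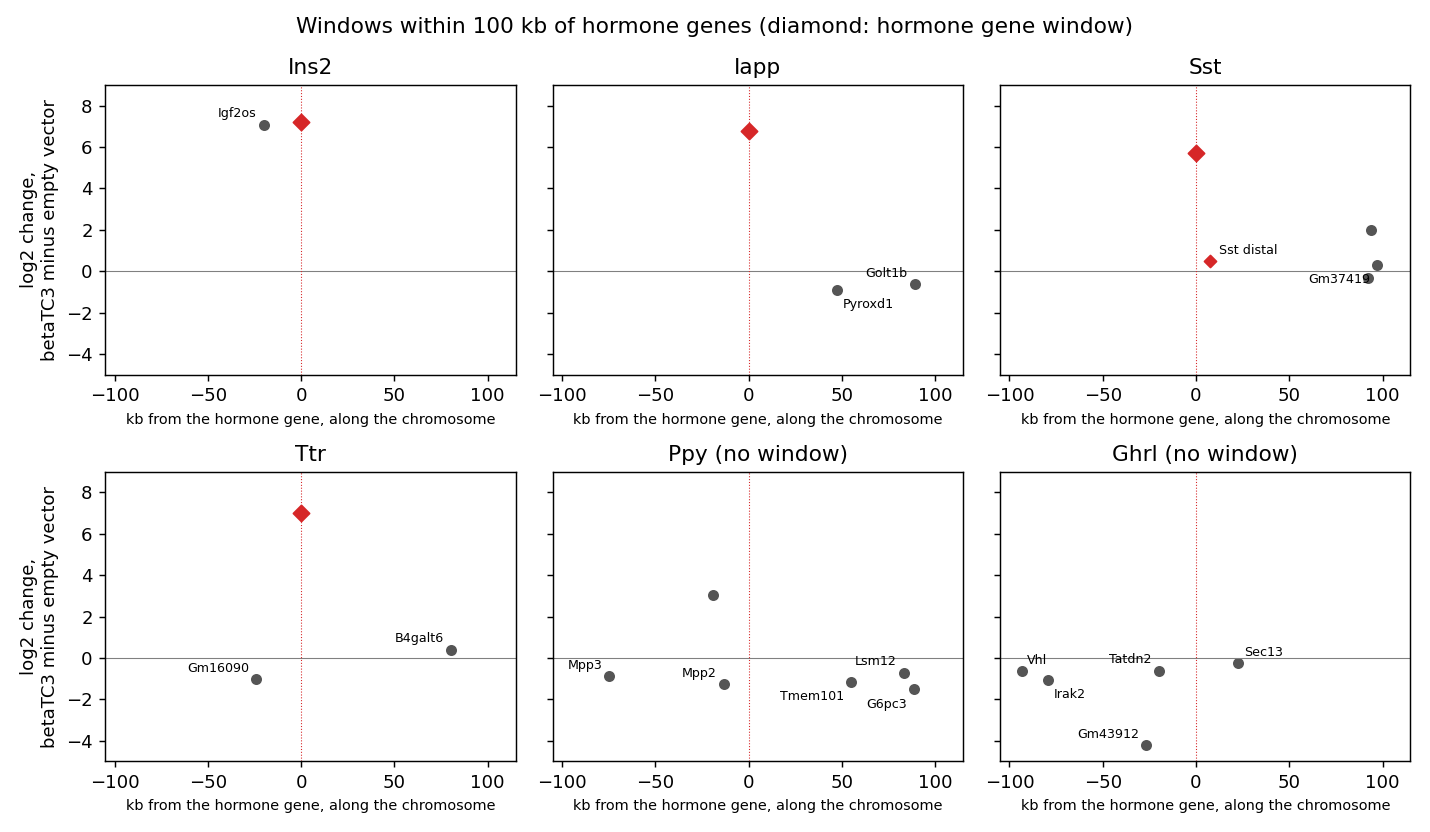
Log2 change from empty vector to betaTC3 (vertical axis) of windows within 100 kb of 6 hormone genes, by distance along the chromosome in kb; grey circles are windows assigned to other genes, named at the one nearest its own start, and red diamonds the hormone gene's own windows. Igf2os at 7.08 is near Ins2 at 7.20, and the windows around Iapp and Ttr lie between -1.01 and 0.41.

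Windows near other gene starts whose values over the 6 libraries were most like those of a hormone gene were found by the root mean square difference of log2 values among 12189 candidates. Levels in the 3 groups fix most of this likeness, and it says nothing of shared control. Nearest to Gcg were Tbx15 (0.21), a T-box factor, Cacna2d3 (0.27), a calcium channel subunit, and Prr16 (0.36). Among the nearest to Iapp were Cldn1 (0.49), a tight junction protein, and Tmem63a (0.60). Nearest to Npy was Mlxipl (0.73), which encodes the glucose-responsive factor ChREBP, followed by Tmem63a (0.79) and Pcdh10 (0.81). For Ins1 they were 9130019O22Rik (0.05), Grb7 (0.12) and 2810021J22Rik (0.14). For Ins2 they were Tec (0.16), Rprml (0.19) and Gpr119 (0.20), the last a lipid receptor of beta cells. Ttr was most like Cyp4x1os (0.07), Fgfr4 (0.20) and H2-Bl (0.30), and the start of Sst most like Card6 (0.21), Zfp296 (0.37) and Frk (0.40). For the distal Sst window they were Tpm1 (0.22), 5031415H12Rik (0.29) and Cast (0.32).

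Genes that act with the hormones were followed in 4 lists, each counted over windows within 2 kb of a gene start. Of all 12195 such windows, 17.7% were higher and 29.5% lower in betaTC3 than with the empty vector, with a median log2 change of -0.11. Against the knockdown 37.3% were higher and 17.8% lower, with a median of 0.29. Between the alphaTC1 groups no window of any list was called (0%), against a median of -0.41 over all windows at starts.

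Of 22 transcription factors and cofactors known to regulate hormone genes, 18 had such a window. Of their 19 windows, 12 were higher and 4 lower in betaTC3 than with the empty vector, with a median of 0.69. With centred libraries the counts were 14 and 4, and against the knockdown they were 14 and 4 as well. The largest changes were at Pdx1, a factor that binds the insulin promoter, and Irx1, an alpha cell factor. Pdx1 held 5.30 and 0 scaled reads with the empty vector, 0 in both knockdown libraries, and 1829 and 1840.5 in betaTC3. Irx1 held 1152 and 1190 with the empty vector, 970 and 1270.4 with the knockdown, and 0.799 and 0 in betaTC3. The smallest were at Nkx6-1, a beta cell factor, and Neurod1, a factor of all islet endocrine cells. Nkx6-1 held 1099 ± 43.0 with the empty vector and 1179 ± 61.7 in betaTC3 and Neurod1 held 699 ± 37.3 and 789 ± 25.8 (SD, n = 2). Against the empty vector neither was called with the deposited scaling, and both were with centred libraries, edgeR and DESeq2. Against the knockdown both were called with the deposited scaling (adjusted p = 0.0427 for Nkx6-1 and 0.0475 for Neurod1 by limma). With centred libraries, edgeR and DESeq2, Nkx6-1 was called against the knockdown and Neurod1 was not.

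Of 18 genes for prohormone cleavage and secretory granules, 17 had a window at the start, of which 9 were higher and 1 lower in betaTC3 than with the empty vector, with a median of 0.57. With centred libraries 10 were higher and 1 lower, and against the knockdown 12 were higher and 0 lower, or 10 and 2 with centred libraries. Pcsk1 encodes a convertase that cuts proinsulin, and its window held 1.32 and 2.66 scaled reads with the empty vector, 0 in both knockdown libraries, and 628 and 639.5 in betaTC3. Sytl4, which encodes the granule protein granuphilin, held 0 and 1.78, 0 in both, and 745 and 768. Cpe, which encodes carboxypeptidase E, held 526 ± 37.0 with the empty vector and 514 ± 48.8 in betaTC3, a log2 change of -0.03 that was not called. Pcsk2, which encodes the other main prohormone convertase, held 1074 ± 63.5 and 1662 ± 5.98 (SD, n = 2 per group) and was among those higher, so the convertase genes differed in their alphaTC1 level.

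Of 19 receptor genes for islet hormones and incretins, 10 had a window at the start, of which 5 were higher and 2 lower in betaTC3 than with the empty vector, with a median of 0.96. Centred libraries gave the same counts. Against the knockdown 4 were higher and 2 lower with a median of 0.22, under the 0.29 of all windows at starts, or 4 and 3 with a median of 0.02 in centred libraries. Glp1r, which encodes the receptor for the glucagon-like peptide cut from the Gcg product, had 0 scaled reads in all 4 alphaTC1 libraries and 535 and 574 in betaTC3. Npy1r, a receptor for the Npy product, held 242 and 252 with the empty vector, 198 and 211 with the knockdown, and 0 and 0.952 in betaTC3. Gcg and Glp1r thus had signal in opposite lines, as did Npy and Npy1r, while Sstr5 and Ramp1 went with their hormone gene. Sstr3, a somatostatin receptor gene, went against Sst. It held 191 ± 21.8 with the empty vector and 44.6 ± 9.22 in betaTC3 (SD, n = 2 per group, adjusted p = 0.000247 by limma). Sstr2 and Ramp3 were not called against the empty vector. Sstr5, a somatostatin receptor, held 4.87 ± 3.15 with the empty vector (SD, n = 2), 0 in both knockdown libraries, and 441 and 423 in betaTC3, like Sst. Ramp1, a subunit of an amylin receptor, held 0 and 2.66, 0 in both, and 161 and 156, like Iapp. These pairs were chosen after their values were seen. Of 31 other peptide hormone genes, 6 had a window at the start, 3 higher (Insl6, Rln1 and Tac1) and 3 lower (Adcyap1, Gnas and Sct), the same counts with centred libraries and against the knockdown. Gnas, a signalling gene kept in that list, held 1925 ± 52.3 with the empty vector and 281 ± 23.7 in betaTC3 (SD, n = 2 per group).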

How the data were processed

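The libraries were sequenced as 50 bp single reads, per the labels. Programs listed in the submitters' processing notes are MACS2 2.2.7.1, Bowtie2 2.4.1 and Picard 2.19.2, with the build mm10 (GRCm38). The authors deposited 1 peak list per library, with a score, a fold ratio over background, and the −log10 of each peak's p-value and q-value, in MACS2's column order. The deposited table gives 1 normalised signal value per window and library. All values were whole multiples of 1 step per library (100% within a tolerance of 0.001), taken as reads; how the factors were made and whether input was subtracted are not given in the sources used here, and read numbers, floors and counting intervals would otherwise describe only the reads left. Intervals and floors cover counting error only.

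Limma 3.58.1 (R 4.3.3) was fitted to log2(signal + 1) of all windows in 1 model of the 6 libraries, with an intensity trend and Benjamini-Hochberg adjustment over 17641 windows. A fold against a group at 0 uses 3 reads per library; with 1 to 3 reads the ratio is of pooled reads. Alternatives were other pseudocounts, a low-value filter, centring, edgeR 4.0.16 and DESeq2 1.42.0 on the recovered reads, a replicate block and leaving out each library. All 10 genes are described. Other genes were named as the 3 most alike windows, the nearest neighbours, and the members of each list that changed most and least, with a few further list members chosen after their values were seen. A few genes that these rules would name are not reported here. The members and lists were chosen with earlier results of these data known. Promoters of 250 bases came from RefSeq for 8 of the 10 genes; TAATTA and TAATTG (homeodomain cores), CATCTG (an E-box), TGACGTCA (the cAMP response element), TATAAA (bound by TBP), and TGCTGAC (a Maf core) were searched on both strands, and a match is a description only. The model was also run on simulated data, with changes only at windows that had signal with the empty vector. Windows near 0 there, as at most hormone genes, were not changed, so the simulation does not bear on the calls at them.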

Additional observations from a re-analysis of the deposited data

How the results depend on the processing

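The calls at Gcg, Ins1, Ins2, Iapp, Npy, Ttr and the start of Sst between betaTC3 and either alphaTC1 group held in each alternative. There were 13 against the empty vector and 14 against the knockdown. These genes had a called peak in 1 line only and few or no reads in the other. The alternatives could hardly undo such calls, so that they held is a description and no separate support. Of the values at single windows recomputed, 7 passed the threshold newly, 5 changed sign and 312 did neither. Among the last, the change at Ins1 between the alphaTC1 groups was 0 without empty-vector library 1. Between knockdown and empty vector, all windows called rose from 0 to 335 with a pseudocount of 0.1, 10 with DESeq2, 163 without the trend and 31 with only the groups compared. Leaving out 1 library gave 0 to 6281, the last without knockdown library 2 (243 higher, 6038 lower), the lone library being assumed to vary like the other groups. Hormone gene windows called were 1 with a pseudocount of 0.1 (Ttr, adjusted p = 0.0178 by limma) and 0 to 1 without 1 library. At Ins2 the adjusted p by limma was 0.00778 with a pseudocount of 0.1, 0.0143 without the trend and 0.0411 with only the groups compared. Values that changed sign without 1 library were those of Npy (-0.42 to 0.98) and the start of Sst (-0.67 to 1.20) between the alphaTC1 groups, and the distal Sst window in betaTC3 (-0.15 to 1.13 against the empty vector, -0.28 to 1.00 against the knockdown). For Npy they did so without knockdown library 1 (-0.35) or empty-vector library 2, for Sst without empty-vector library 2, and for the distal window without betaTC3 library 2. Without 1 library, 6983 to 7467 windows were called between betaTC3 and the empty vector and 6523 to 11055 between betaTC3 and the knockdown, the lowest without betaTC3 library 1, in place of 9744 and 10691. With peaks limited to a -log10 q at or above the list's median, 0 hormone genes had a peak in both empty-vector libraries and 3 in both betaTC3 libraries (Iapp, Ins2 and Npy). Fewer libraries or peaks entered by construction in the leave-out and peak settings, and for the rest the cause was not tested. The labels do not pair replicate numbers, and same-numbered deviations correlated at -0.0079, 0.085 and -0.176. With the replicate block 0, 9152 and 9891 windows were called in the 3 comparisons, with 0, 6 and 6 at hormone genes, and no call at a hormone gene changed. Crossed numbers between betaTC3 and the knockdown, an alternative chosen after seeing the data, gave 11853. Depth limits the alphaTC1 values other than Gcg and the distal Sst window, which rest on a few reads.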
